A study of Mus musculus with 6 samples.

Results

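The genes Hif1a, Hk2, Slc2a1, Pfkfb3, Pgk1, Ldha, Vegfa, Adm, Ndrg1 and Egln3, which belong to the response to low oxygen and to glycolysis, were examined in colon tissue from mice with colitis. The list was made by name, and all 10 were found among the 18477 genes of the deposited table. Each passed the filter on low counts. They are 2 regulators of the oxygen response (Hif1a, Egln3), 5 genes of glucose uptake and glycolysis (Slc2a1, Hk2, Pfkfb3, Pgk1, Ldha), 2 secreted factors that act on blood vessels (Vegfa, Adm) and the stress-response gene Ndrg1. The study asked whether the gut bacterium *Bacteroides vulgatus* (*B. vulgatus*) eases colitis. All mice were male C57BL/6, aged between 6 and 8 weeks at purchase, and all received dextran sulfate sodium (DSS), which injures the colon epithelium, at 2% in their water for 7 days from day 8. The DSS group (n = 3) was gavaged daily with PBS for 14 days, and the DSS+BV group (n = 3) with *B. vulgatus* in PBS. Libraries came from colon tissue of 3 mice of each group. No library of mice without DSS was analysed here, so each difference is between 2 groups of mice with DSS.

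Cells respond to low oxygen through the transcription factor HIF-1, a pair of HIF-1α (Hif1a) and ARNT. When oxygen is present, prolyl hydroxylases of the EGLN family mark HIF-1α, and the VHL protein then directs its breakdown. When oxygen is scarce, HIF-1α persists, binds short DNA elements with the core letters ACGTG or GCGTG, and switches on genes for glucose uptake, glycolysis, lactate production and vessel growth. EGLN3 is itself a target and so feeds back on the factor. HIF-1α is controlled largely at the level of the protein, so the mRNA of Hif1a is not a measure of its activity. The colon mucosa has a steep fall in oxygen from the crypt base to the lumen, and infiltrating neutrophils and macrophages also use HIF-1 and glycolysis.

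The promoters below are shown because Adm and Egln3 were the genes whose groups did not overlap, whereas Ldha and Pgk1 had the most abundant mRNA of the list. Each run goes from 250 before to 50 after a transcription start, 5′ to 3′ on the strand of the gene, from RefSeq on GRCm38.p6. The Adm window is chr7:110627407-110627706 (plus strand), that of Egln3 is chr12:54203825-54204124 (minus strand), that of Ldha, from the more upstream of 2 starts, is chr7:46845554-46845853 (plus strand), and that of Pgk1 is chrX:106186850-106187149 (plus strand). Capitals mark ACGTG or GCGTG on either strand, so CACGT and CACGC are the same letters on the other strand.
Adm: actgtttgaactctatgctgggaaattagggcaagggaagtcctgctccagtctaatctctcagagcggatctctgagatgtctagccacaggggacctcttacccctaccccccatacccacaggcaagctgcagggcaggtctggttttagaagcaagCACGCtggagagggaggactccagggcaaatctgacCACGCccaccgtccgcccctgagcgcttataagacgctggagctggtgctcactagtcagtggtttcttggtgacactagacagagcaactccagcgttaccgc
Egln3: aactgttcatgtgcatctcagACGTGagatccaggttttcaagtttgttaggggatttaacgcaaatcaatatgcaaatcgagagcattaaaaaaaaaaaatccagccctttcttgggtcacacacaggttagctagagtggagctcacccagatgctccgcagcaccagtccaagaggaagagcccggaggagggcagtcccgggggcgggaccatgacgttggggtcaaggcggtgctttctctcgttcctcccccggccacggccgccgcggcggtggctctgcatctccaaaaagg
Ldha: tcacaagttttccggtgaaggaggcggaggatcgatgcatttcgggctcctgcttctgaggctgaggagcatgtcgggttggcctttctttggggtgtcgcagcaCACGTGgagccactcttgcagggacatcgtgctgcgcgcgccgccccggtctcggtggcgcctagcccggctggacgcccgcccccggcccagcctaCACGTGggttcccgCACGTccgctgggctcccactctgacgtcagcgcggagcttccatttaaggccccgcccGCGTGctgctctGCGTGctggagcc
Pgk1: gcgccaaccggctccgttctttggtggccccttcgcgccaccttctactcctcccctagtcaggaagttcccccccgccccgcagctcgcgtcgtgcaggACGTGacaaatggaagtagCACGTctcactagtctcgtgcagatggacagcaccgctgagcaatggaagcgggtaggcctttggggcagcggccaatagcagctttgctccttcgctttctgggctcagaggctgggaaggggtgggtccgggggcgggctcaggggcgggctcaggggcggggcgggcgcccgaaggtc

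Counted from the start, Adm held 2 matches, at -90 and -54, and Egln3 held 1, in the distal part of its window. Pgk1 held 2, at -150 and -131. The Ldha window held 7, of which 2 pairs share letters as the palindrome CACGTG, read on both strands. Promoter windows were at hand for 9 of the 10 genes, and all 9 held at least 1 match in at least 1 window. Among the 11574 tested genes with a window, 64.73% held at least 1 match, 35.81% at least 2 and 0.5443% at least 7. Ldha, with the most matches, had a fold change near 0 between the groups. A match of 5 letters is a description of the window and not a binding site.

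Expression was compared between the groups with edgeR's quasi-likelihood test over 14579 genes, and a gene was called at a Benjamini-Hochberg adjusted p under 0.05 with a log2 fold change beyond 1 in either direction. Levels are CPM (counts scaled to a common library size with TMM factors), and fold changes are DSS+BV against DSS. Library totals ranged from 15293276 to 17254343 expected counts. The members' counts ran from 69 for Adm in DSS+BV 3 to 23137 for Ldha in DSS 1. For the lowest, counting error alone is 12% of the value. All deposited values of the members were whole numbers, which does not show how reads shared with other genes were assigned. By all tested genes, the libraries were cut into 2 clusters, a number set beforehand. The split did not follow treatment, with DSS 1, DSS 3 and DSS+BV 1 against DSS 2, DSS+BV 2 and DSS+BV 3. In bulk tissue, fewer cells of a type and less RNA per cell cannot be told apart. Whether mice of a group shared a cage is not given in the sources used here. Where 3 values of a group are given, they are those of mice 1, 2 and 3, in that order.

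None of the 10 genes was called by edgeR in either direction, against 0.0892% of all tested genes called lower and 0% called higher. At an unadjusted p under 0.05, 2 of the 10 were lower (Adm and Egln3) and 0 were higher, where 9.12% of all genes were lower and 3.4% higher. For the same 2 genes, all DSS+BV values lay under all DSS values. That separation held for 11.3% of all tested genes in the lower direction and for 6.37% in the higher direction. With DESeq2, 1 of the 10, Adm, was called lower, against 1.73% of all genes lower and 0.279% higher. Of the 10 fold changes, 9 were below 0, beside 7501 of the 14579 tested genes. The 9 include Ldha, at -0.0011 on the log2 scale. They also include Slc2a1, Pgk1 and Vegfa, whose signs turned with 1 library left out. The median log2 fold change was -0.34 for the 10 genes and -0.01 over all tested genes. A count of 2 in 10 is within about 1 gene of what the shares of 9.12% and 11.3% give for 10 genes.

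**Figure D1:**
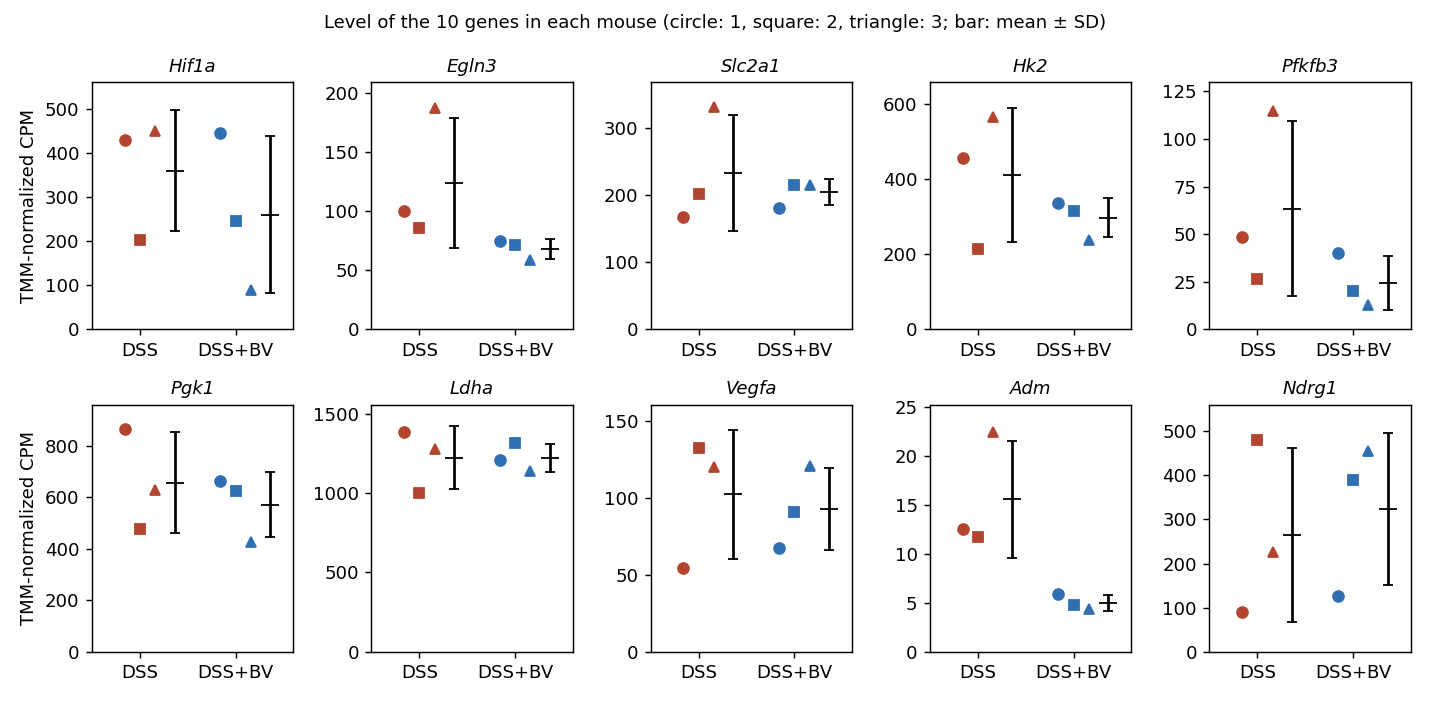
TMM-normalized CPM (vertical axes, linear, from 0) of the 10 genes in each of the 3 DSS (red) and 3 DSS+BV (blue) mice. Symbols give the mouse number, and the black bars are the mean ± SD (n = 3). In the panels of Egln3 and Adm each blue symbol lies under each red one, and in the other 8 panels the colours overlap.

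Hif1a, which encodes the oxygen-regulated subunit of the factor (Entrez 15251, chr12:73901375-73947530, plus strand), measured 429, 202 and 450 CPM in the DSS mice against 444, 245 and 89.7 CPM with *B. vulgatus*. DSS 1, DSS 3 and DSS+BV 1 stood near a common high level, and the groups overlapped widely. The log2 fold change was -0.47 (standard error 0.58, 95% interval -1.85 to 0.91, edgeR adjusted p = 0.76). Without DSS+BV 3 it was -0.06 and without DSS+BV 1 it was -1.09, so its size turned on single mice. In the annotation, 330 of the 5896 exonic bases of Hif1a overlap an antisense gene and 148 overlap a gene on the same strand, whose reads cannot be told apart with certainty.

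Egln3, the prolyl hydroxylase that is also a target of the factor (Entrez 112407, chr12:54178981-54203860, minus strand), measured 100, 85.5 and 187 CPM in the DSS mice. With *B. vulgatus* the values were 74.5, 71.0 and 58.8 CPM. The lowest DSS value was 1.147 times the highest DSS+BV value, so the groups were separate by a small gap, and DSS 3 stood far above the rest. The mean was 124 ± 55.1 CPM (SD, n = 3) in the DSS mice and 68.1 ± 8.26 CPM (SD, n = 3) with *B. vulgatus*. This gave -0.87 on the log2 scale (standard error 0.31, 95% interval -1.60 to -0.14, edgeR adjusted p = 0.358). It did not pass the threshold, and neither did it with DESeq2 (adjusted p = 0.188). Without DSS 3 the log2 fold change was -0.45.

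Slc2a1 encodes GLUT1, the basal glucose carrier of most cells. The gene (Entrez 20525, chr4:119108711-119137983, plus strand) measured 167, 202 and 332 CPM in the DSS mice against 182, 215 and 216 CPM with *B. vulgatus*. Apart from DSS 3 the 5 libraries lay close together, with no order by treatment. The log2 fold change was -0.19 (standard error 0.27, 95% interval -0.83 to 0.44, edgeR adjusted p = 0.788), and without DSS 3 it was 0.15. An antisense gene overlaps 105 of its 3506 exonic bases.

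Hk2, the inducible hexokinase that traps glucose in the cell (Entrez 15277, chr6:82725025-82774454, minus strand), measured 454, 214 and 563 CPM without and 336, 316 and 237 CPM with *B. vulgatus*. The DSS values bracketed those of the DSS+BV mice. Its log2 fold change was -0.47 (standard error 0.35, 95% interval -1.32 to 0.38, edgeR adjusted p = 0.615). Without DSS 3 the value was -0.17, and without DSS 2 it was -0.77.

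Pfkfb3 makes fructose 2,6-bisphosphate, the strongest activator of phosphofructokinase. The gene (Entrez 170768, chr2:11471433-11554077, minus strand) measured 48.5, 26.5 and 115 CPM in the DSS mice, and 39.9, 20.3 and 12.6 CPM with *B. vulgatus*. DSS 3 was far above any other library, and DSS 2 lay under DSS+BV 1. With a log2 fold change of -1.38 (standard error 0.62, 95% interval -2.88 to 0.11, edgeR adjusted p = 0.426), Pfkfb3 had the second lowest value of the 10 and an interval that included 0. Without DSS 3 the log2 fold change was -0.63, and without DSS+BV 1 it was -1.94.

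Pgk1, the phosphoglycerate kinase of the first ATP-yielding step (Entrez 18655, chrX:106187100-106203699, plus strand), measured 865, 476 and 627 CPM in the DSS mice against 661, 625 and 426 CPM with *B. vulgatus*. Ldha, whose product turns pyruvate into lactate (Entrez 16828, chr7:46841475-46855627, plus strand), measured 1385, 1001 and 1278 CPM in the DSS mice against 1208, 1316 and 1137 CPM with *B. vulgatus*. Both genes were high in every mouse, and the groups overlapped. The log2 fold change of Pgk1 was -0.20 (95% interval -0.86 to 0.46, edgeR adjusted p = 0.787). That of Ldha was -0.0011 (standard error 0.19, 95% interval -0.44 to 0.44, edgeR adjusted p = 0.999), the narrowest interval of the 10. The sign of the Ldha value turned with the scaling and is not a direction.

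Vegfa, the main growth factor of blood vessel endothelium (Entrez 22339, chr17:46016993-46032369, minus strand), measured 54.7, 133 and 120 CPM in the DSS mice against 67.5, 90.7 and 121 CPM with *B. vulgatus*. The groups covered nearly the same range. Its log2 fold change was -0.14 (standard error 0.37, 95% interval -1.01 to 0.73, edgeR adjusted p = 0.897).

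Adm encodes adrenomedullin, a peptide that widens vessels and tightens their endothelial barrier. The gene (Entrez 11535, chr7:110627661-110629820, plus strand) measured 12.6, 11.8 and 22.5 CPM in the DSS mice against 5.94, 4.78 and 4.36 CPM with *B. vulgatus*. The lowest DSS value was 1.979 times the highest DSS+BV value, the widest gap among the 10 genes. The mean was 15.6 ± 5.97 CPM (SD, n = 3) in the DSS mice and 5.03 ± 0.816 CPM (SD, n = 3) with *B. vulgatus*, a level 3.10 times lower in the DSS+BV group. The log2 fold change was -1.63 (standard error 0.32, 95% interval -2.39 to -0.87), with an unadjusted p of 0.00156 from edgeR's quasi-likelihood test and an adjusted p of 0.186. It was lower in 3 of 3 DSS+BV mice but did not pass the edgeR threshold. DESeq2 called it, at -1.61 on the log2 scale (standard error 0.36, DESeq2 adjusted p = 0.000862). With each library left out in turn DESeq2 called it 6 of 6 times, with adjusted p-values between 0.000365 and 0.0415, whereas the edgeR adjusted p lay between 0.151 and 0.87. The smallest fold was -1.27 on the log2 scale with edgeR, without DSS 3.

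Ndrg1, a hypoxia-responsive gene of differentiating epithelial and other cells (Entrez 17988, chr15:66929318-66969640, minus strand), measured 89.0, 479 and 226 CPM in the DSS mice against 127, 389 and 455 CPM with *B. vulgatus*. It varied widely between mice of each group and was the one member with a mean higher in the DSS+BV group. The log2 fold change was 0.29 (standard error 0.68, 95% interval -1.32 to 1.90, edgeR adjusted p = 0.884), and it turned to -0.12 without DSS 1. Antisense and divergent genes overlap 419 and 137 of its 6596 exonic bases.

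**Figure D2:**
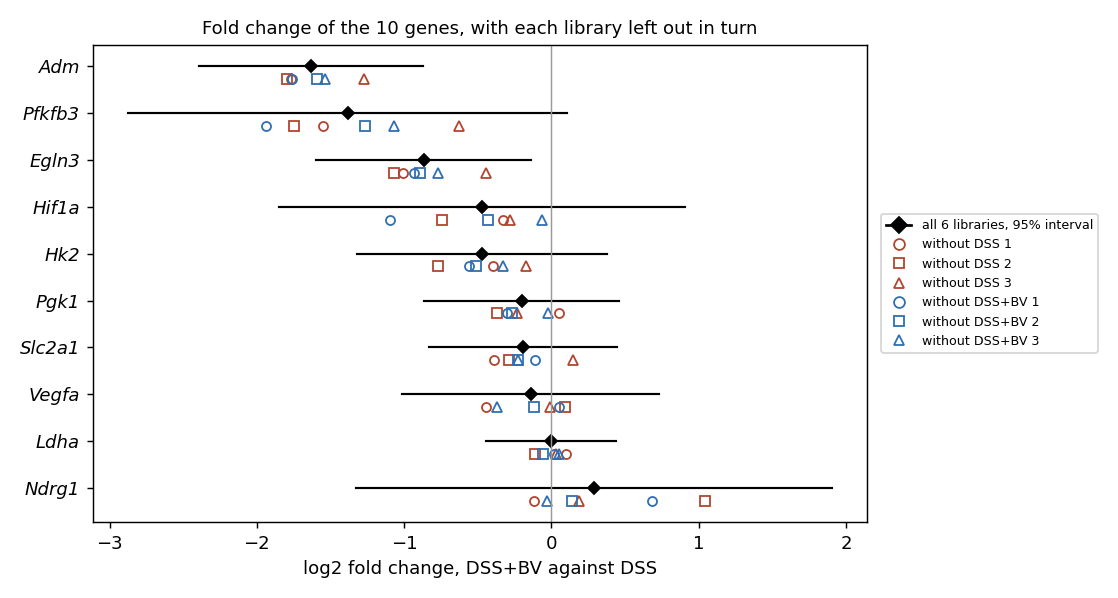
Log2 fold change, DSS+BV against DSS (horizontal axis), of each gene from edgeR. Diamonds and lines are the value with all 6 libraries and its 95% interval, and open symbols are the values without 1 library. The intervals of Adm (-2.39 to -0.87) and Egln3 (-1.60 to -0.14) leave out 0, and the red triangles (without DSS 3) lie nearest to 0 for Adm, Pfkfb3, Egln3 and Hk2.

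DSS 3 held the highest value of 6 of the 10 genes (Hif1a, Hk2, Slc2a1, Pfkfb3, Adm and Egln3), and DSS+BV 3 the lowest of 5. The coefficient of variation between mice was larger in the DSS than in the DSS+BV group for 9 of the 10. It was 37.3% against 9.55% for Slc2a1 and 44.3% against 12.1% for Egln3. For Hif1a it was 38.2% against 68.5%, the other way round. With 3 mice in a group the difference in spread was not tested. The counts of highest and lowest values and of larger variation were not set against all tested genes. They therefore show no trait particular to the 10.

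For 5 of the 10 genes, values did not overlap between the 2 library clusters. Hif1a, Hk2, Pfkfb3 and Pgk1 were higher in all of DSS 1, DSS 3 and DSS+BV 1 than in the other libraries, and Ndrg1 was lower. Such a separation held for 11.7% of all tested genes in the first direction and 11.4% in the second. The clusters were formed from these same genes, so the counts are a description with no test. For Hif1a the split was wide, between 429 and 450 CPM on one side and between 89.7 and 245 CPM on the other. For Hk2 it was narrow, since the lowest of the first cluster was 336 and the highest of the second 316 CPM. For Pgk1 the gap was smaller still, with DSS 3 at 627 and DSS+BV 2 at 625 CPM. Summed levels of several marker lists moved in the same way, given here for DSS 1, DSS 3 and DSS+BV 1 against DSS 2, DSS+BV 2 and DSS+BV 3. For 10 macrophage and monocyte markers they were 1388, 1986 and 1400 against 843.8, 606.1 and 563.6 CPM. The B and plasma cell sums were 655.8, 1613 and 1119 against 552.3, 266.7 and 245.4 CPM. T cell sums were 32.09, 52.41 and 58.84 against 27.42, 28.1 and 29.84 CPM. The split was thus not particular to macrophage markers, and the part of these cell types in the Hif1a values was not tested.

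Per kilobase of annotated exon, Ldha and Pgk1 were the most abundant members in the DSS group, at 369 ± 59.9 and 292 ± 87.5 CPM per kb (SD, n = 3 per group). Hk2, Slc2a1 and Hif1a followed at 68.8 ± 29.9, 66.7 ± 24.8 and 61.1 ± 23.4 CPM per kb. Egln3 (46.7 ± 20.7), Ndrg1 (40.2 ± 30.0), Vegfa (23.9 ± 9.78), Adm (9.64 ± 3.69) and Pfkfb3 (8.38 ± 6.09 CPM per kb) were lower. Ldha and Pgk1 do not differ beyond their SDs. The same holds for each pair of neighbours from Hk2 to Vegfa, and for Adm and Pfkfb3, while the steps from Pgk1 to Hk2 and from Vegfa to Adm exceed the SDs. In the DSS+BV group Slc2a1 (58.3 ± 5.57 CPM per kb) came next after Pgk1, and Ldha was at 369 ± 27.3 CPM per kb. The step there from Slc2a1 to Hk2 (49.65 ± 8.77 CPM per kb) did not exceed the SD of Hk2. The length is the union of all annotated exons, so a gene with long unused exons is set too low.

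Other genes of the same processes were taken from 4 lists. These were chosen with earlier results of these data known, so their shares are a description. Of the 25 other genes of glycolysis and lactate transport, 24 were tested, 12 were lower and 12 higher, and the median log2 fold change was -0.0009. None was called by edgeR. At an unadjusted p under 0.05, 4 of 24 were lower and 1 higher, beside 9.12% and 3.4% of all tested genes, and DESeq2 called 1 lower, beside 1.73%. Slc16a3, which encodes the lactate exporter MCT4, was at 21.7, 25.3 and 37.2 CPM in the DSS and 11.1, 15.2 and 13.5 CPM in the DSS+BV mice, with a log2 fold change of -1.08 (edgeR adjusted p = 0.245, DESeq2 adjusted p = 0.0177). Slc2a3, the high-affinity glucose carrier of leukocytes and neurons, had a log2 fold change of -1.14 (edgeR adjusted p = 0.342). Pfkfb2, a relative of Pfkfb3, had one of 0.55 (edgeR adjusted p = 0.364), with every DSS+BV value above every DSS value. Over the list, groups did not overlap for 3 of 24 genes in the lower and 1 in the higher direction, beside 11.3% and 6.37% of all tested genes. The genes of this list thus showed no common direction.

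Of the 17 genes that regulate HIF, all were tested, 12 were lower and 5 higher, and the median was -0.06. None was called by edgeR or DESeq2, and at an unadjusted p under 0.05 1 was higher and 0 lower, beside 3.4% and 9.12% of all tested genes. Siah2, a ubiquitin ligase that acts on prolyl hydroxylases, had a log2 fold change of 0.59 (edgeR adjusted p = 0.361), and its groups did not overlap. Over the list, this held for 2 of 17 genes in the lower and 2 in the higher direction, beside 11.3% and 6.37% of all tested genes. The values of Arnt2, a relative of ARNT, and Cited2, which competes with HIF for its coactivators, were 1.93 and -0.41 (edgeR adjusted p = 0.402 and 0.408), and both overlapped.

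Of 30 other genes known as HIF targets, 21 were lower and 9 higher, with a median log2 fold change of -0.44. By edgeR 0 were called. At an unadjusted p under 0.05, 12 of 30 were lower and 0 higher, beside 9.12% and 3.4% of all tested genes. Groups did not overlap for 12 in the lower and 1 in the higher direction, beside 11.3% and 6.37%. DESeq2 called 3, all lower, beside 1.73%: Hmox1, Ak4 and Bnip3. The list was chosen with earlier results of these data known, and Bnip3 was also named after its values were seen. Hmox1, which encodes the haem-degrading enzyme haem oxygenase 1, was at 37.6, 31.2 and 44.5 CPM in the DSS mice and 14.5, 11.2 and 10.2 CPM with *B. vulgatus*, a log2 fold change of -1.66 (edgeR adjusted p = 0.0833, DESeq2 adjusted p = 3.3e-08). Ak4, a mitochondrial adenylate kinase, was at 79.9, 80.1 and 98.5 CPM and at 26.1, 32.0 and 48.9 CPM, a log2 fold change of -1.27 (edgeR adjusted p = 0.186, DESeq2 adjusted p = 0.00182). Bnip3, an inducer of mitophagy, had a log2 fold change of -1.44 (edgeR adjusted p = 0.239, DESeq2 adjusted p = 0.00551). Loxl2, a collagen-crosslinking oxidase, had one of -0.94 (edgeR adjusted p = 0.168) and was under the fold threshold. The summed level of 3 red blood cell genes was also lower in each DSS+BV mouse. It was 28.82, 122.1 and 128 CPM there against 165.4, 148.2 and 298.5 CPM in the DSS mice. Sums of neutrophil, fibroblast and endothelial markers, given below, were lower without overlap too. The part of these cell types in the Hmox1 values was not tested.

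Of the 15 ligands and receptors around Vegfa and Adm, 14 were tested, 12 were lower and 2 higher, and the median was -0.32. None was called by edgeR or DESeq2. At an unadjusted p under 0.05, 4 of 14 were lower and 0 higher, beside 9.12% and 3.4% of all tested genes. Ramp3, a subunit that lets the Calcrl receptor bind adrenomedullin, was at 5.45, 3.73 and 9.20 CPM in the DSS and 2.97, 1.91 and 1.58 CPM in the DSS+BV mice, a log2 fold change of -1.51 (edgeR adjusted p = 0.318). The placental growth factor Pgf and the lymphatic receptor Flt4 had values of -1.28 and -0.84 (edgeR adjusted p = 0.323 and 0.329). In all 3 genes, named for their small p-values, the groups did not overlap. Over the list, this held for 4 of 14 genes in the lower and 1 in the higher direction, beside 11.3% and 6.37% of all tested genes. The summed level of 8 endothelial markers was also lower in each DSS+BV mouse, between 246.8 and 335.6 CPM against 375.3 to 525.8 CPM, and its part in the values of these ligands and receptors was not tested.

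**Figure D3:**
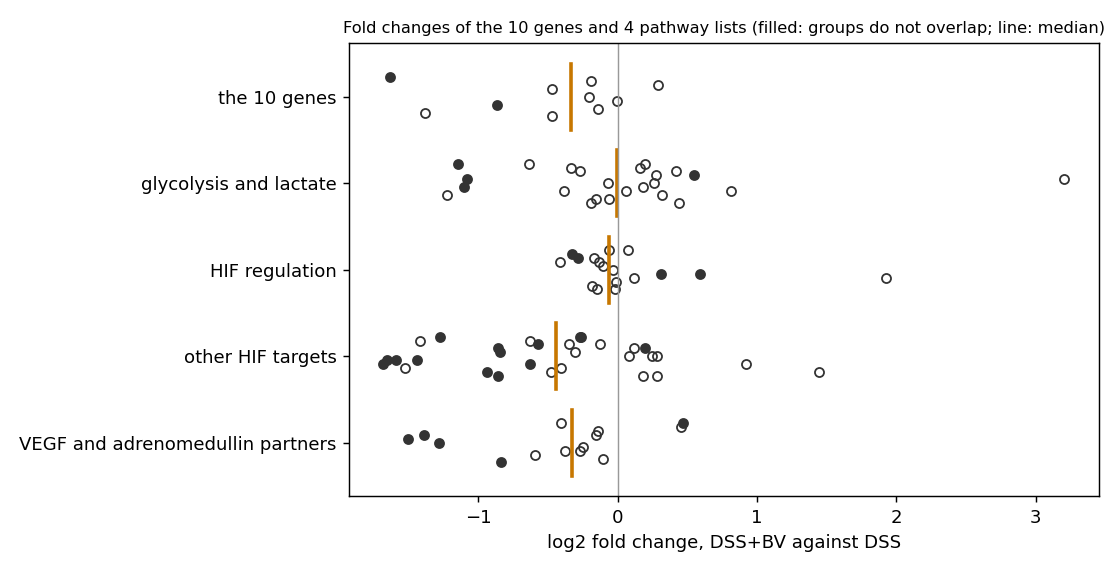
Log2 fold change, DSS+BV against DSS (horizontal axis), of each tested gene of the 10 and of the 4 pathway lists; filled points are genes whose groups do not overlap, and orange lines are the medians. The medians are -0.34 for the 10 genes, -0.0009 for glycolysis and lactate, -0.06 for HIF regulation, -0.44 for other HIF targets and -0.32 for the VEGF and adrenomedullin partners.

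Ratios of 2 genes within a library do not depend on the scaling between libraries, and 7 were compared with a two-sided exact permutation test on the log2 scale, with 0.5 added to each count (ratios are printed without it). With 3 mice against 3 this test cannot give a p under 0.1. The count of Adm relative to that of Calcrl, its receptor, was 0.363, 0.309 and 0.373 in the DSS mice against 0.147, 0.161 and 0.134 with *B. vulgatus*. Within each group the ratio was tight and between them it was separate, with a log2 difference of -1.23 (exact p = 0.1, 0.233 after Benjamini-Hochberg adjustment over the 7 ratios). The ratio of Slc2a1 to Slc2a3 was 19.5, 19.9 and 17.3 in the DSS mice and 25.3, 49.0 and 38.8 in the DSS+BV mice, a log2 difference of 0.94 (exact p = 0.1). Egln3 relative to Egln1, the main oxygen sensor of the family, was 1.35, 1.31 and 2.44 against 1.18, 1.06 and 0.940, a log2 difference of -0.62 (exact p = 0.1), which was -0.33 without DSS 3. These 3 ratios reached the smallest p the design allows, and the values are not corrected for gene length.

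The other 4 ratios overlapped between the groups. Hk2 relative to the constitutive Hk1 was 2.08, 0.943 and 2.14 in the DSS mice and 1.14, 1.13 and 1.09 in the DSS+BV mice (exact p = 0.4). Ldha exceeded Ldhb by between 60.3 and 199 times (exact p = 0.3). The ratio of Hif1a to Epas1, which encodes HIF-2α, ran from 0.432 in DSS+BV 3 to 2.47 in DSS 1 (exact p = 0.6), and that of Vegfa to its receptor gene Kdr from 1.09 to 2.13 (exact p = 0.6).

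**Figure D4:**
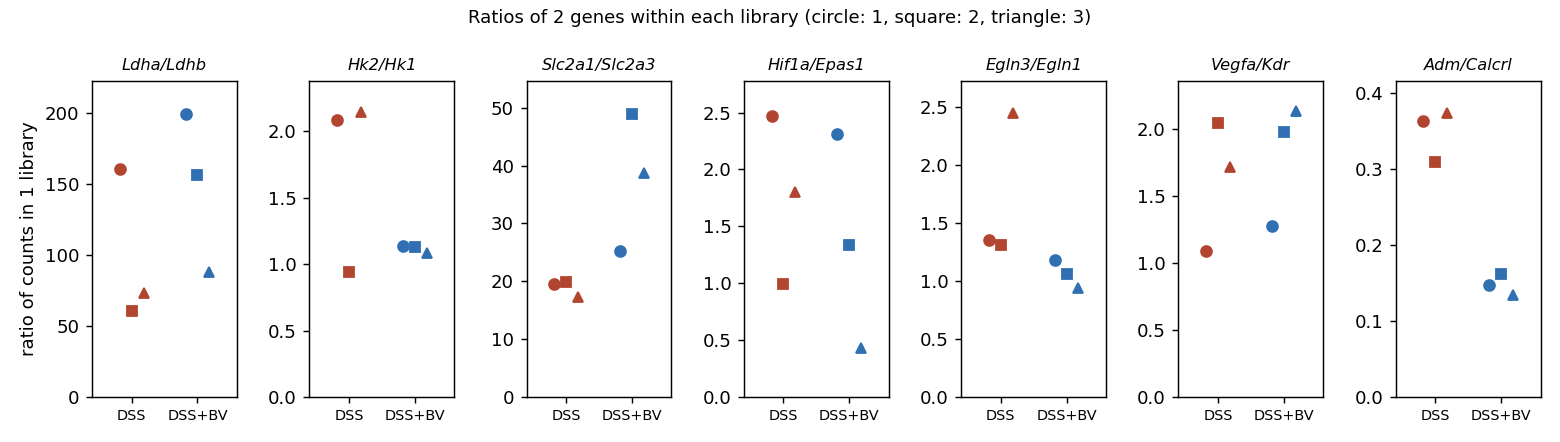
Ratio of the counts of 2 genes in the same library (vertical axes, linear, from 0) in the DSS (red) and DSS+BV (blue) mice, with symbols for the mouse number. Adm/Calcrl (0.309 to 0.373 against 0.134 to 0.161), Egln3/Egln1 and Slc2a1/Slc2a3 are separate between the groups, and the other 4 overlap.

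Markers of several cell types differed between the groups beside Adm and Egln3. The 9 colon epithelium markers were all detected, with sums from 9222 to 15800 CPM, so the labelled tissue was present. All 9 had a log2 fold change above 0, with a sum of 11930 to 15800 CPM in the DSS+BV group against 9222 to 10420 CPM. For 6 of these 9 the groups did not overlap, beside 6.37% of all tested genes in the higher direction. The 9 neutrophil markers were all lower in every DSS+BV mouse, and their sum was 15.36 to 28.96 CPM against 152.3 to 195.7 CPM in the DSS mice. Sums of the 8 fibroblast markers (1435 to 2085 against 3919 to 4189 CPM) and of the 8 endothelial markers, given above, were also lower without overlap. Taken singly, 4 of 8 markers in each of both lists were lower without overlap, beside 11.3% of all tested genes. The sum of the 8 smooth muscle markers overlapped (2411 to 3959 against 3282 to 4069 CPM), as did those of the B and plasma cell, T cell, colonocyte, skeletal muscle and squamous epithelium lists. The squamous sum was at most 1.976 CPM. The part of these cell types in the values of Adm and Egln3 was not tested.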

How the data were processed

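Per the labels, colon RNA was sequenced from 3 DSS and 3 DSS+BV mice, and the submitters' processing notes name HISAT2 2.1.0, Bowtie2 2.2.5, RSEM 1.2.8 and GRCm38.p6. The authors quantified genes with RSEM and deposited expected counts, unscaled and not pooled. They were rounded to whole numbers here, since 1573 genes (8.51%) held a value that was not whole. Genes were kept with filterByExpr (minimum count 10, minimum total 15), scaled with TMM and tested with edgeR 4.0.16 in R 4.3.3. DESeq2 1.42.0, the tool of the study, was an alternative. The common biological coefficient of variation was 32.1%.

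The 10 genes and all lists were chosen with earlier results of these data known. Named are the 10, the called genes and the 3 smallest p-values of each list and the partners in the ratios. Exon lengths and overlaps came from GENCODE M21 (GRCm38). In lists, Ero1l was matched as Ero1a. Pairs of mice in a group differed by a chi-square per degree of freedom of at least 42.66. The tests were tested on simulated data. Figures used matplotlib 3.10.9.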

Additional observations from a re-analysis of the deposited data

How the results depend on the processing

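Alternatives were DESeq2, DESeq2's own scaling (RLE) or upper-quartile factors in edgeR, keeping every gene with a count or CPM over 1 in 3 libraries, a replicate block, robust dispersion, each library left out in turn and, for ratios, 2 counts added. DESeq2 without each library, and the median of all genes (-0.062 with upper-quartile factors), were added after seeing the data. The median log2 fold change of the 10 genes ran from -0.56 to -0.20 over all alternatives. DESeq2 called 1 of the 10 lower (edgeR 0), 280 genes lower and 45 higher over the table (edgeR 13 and 0), 1 gene of the glycolysis list and 3 other HIF targets. The cause was not tested. With 1 library left out, edgeR called between 0 and 3 genes lower and between 0 and 4 higher in the table, DESeq2 called between 1 and 3 of the 10 lower (3 without DSS 2 and 2 without DSS+BV 1, with Pfkfb3 added in both and Egln3 in the first), and between 2 and 4 of the 10 had lower groups without overlap.

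Same-numbered mice did not pair: their deviations from the group means correlated at 0.267, 0.255 and -0.296, and 1 of 3 correlated best with its own number. The replicate block left 0 genes called in the table and gave Adm a log2 fold change of -1.58 (edgeR adjusted p = 0.344). The sign of Ldha turned with DESeq2 (0.0196), RLE factors (0.0104), every gene with a count (0.0298), CPM over 1 in 3 libraries (0.0052) and the replicate block (0.0091). With libraries left out, signs turned for Ldha (-0.11 to 0.099), Pgk1 (-0.37 to 0.049), Slc2a1 (-0.39 to 0.15), Vegfa (-0.44 to 0.091), Ndrg1 (-0.12 to 1.04), the log2 ratio of Hif1a to Epas1 (-1.11 to 0.099) and that of Vegfa to Kdr (-0.10 to 0.39). Adm, Egln3, Pfkfb3, Hif1a and Hk2 kept their sign under every alternative run. Depth limits Adm most, at 69 to 386 counts.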
